A study of Homo sapiens with 4 samples.

Results

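The 8 caspase genes described here are CASP1, CASP2, CASP4, CASP6, CASP8, CASP9, CASP10 and CASP14. They were read from every probe set that the platform annotation of the arrays assigns to exactly 1 of them, which gave 37 of 49293 probe sets, and 8 of the 18132 genes with such a probe set. A further 3 probe sets were annotated to a member together with another gene and were not used. The samples were RNA from SCC-15, an established human cell line from a squamous cell carcinoma of the tongue, so no normal tissue is represented. The 2 mimic arrays are of cells given a synthetic microRNA mimic, and the 2 control arrays of cells given miR-NC, a control oligonucleotide. Per the labels' protocols, transfection at 30 nM followed seeding by 24 h and RNA was taken 36 h after transfection in both groups. The mimic is miR-762 in the series title and design text and miR-585-5p in the labels of both mimic samples, and is called the mimic below. The labels do not tie the replicates to separate cultures, and each p-value below therefore reflects array-to-array spread that may be purely technical. The comparison asks which transcripts differ between cells with and without the mimic.

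Caspases are proteases that cut after aspartate residues and are made as inactive precursors, which are switched on by assembly on a signalling platform or by cleavage by another caspase. Initiator caspases start apoptosis: CASP8 and CASP10 at death receptors, CASP9 on the apoptosome that forms after mitochondrial permeabilisation, and CASP2 on the PIDDosome. Effector caspases such as CASP6 carry out the cutting of cell structures, CASP1 and CASP4 drive inflammatory cell death through gasdermin D, and CASP14 takes part in filaggrin breakdown in the stratified epidermis. Their activity is set largely on the protein, so a transcript level does not measure it.

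Both microRNAs named in the sources are shown because the group differs from the control by one of them. The sequences are mature RNAs from RefSeq (GRCh38.p14), written 5′ to 3′, and the capitals mark the seed, bases 2 to 8, the stretch that leads target recognition. The first lies at chr16:30893951-30893972 on the + strand and the second at chr5:169263649-169263670 on the - strand, and their seeds differ.
hsa-miR-762: gGGGCUGGggccggggccgagc
hsa-miR-585-5p: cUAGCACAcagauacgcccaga

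Values are log2 RMA intensities and every difference is mimic minus control. Calls come from limma's moderated test on 31711 probe sets with 1 gene and a mean above the dim level of 2.83, with Benjamini-Hochberg adjusted p under 0.05. Over all of them 4591 probe sets were called higher (14.5%) and 2522 lower (7.95%), with a median difference of -0.01. Higher calls were 64.5% of calls, and 50.4% after a further quantile normalization. The limit of all calls is the number of arrays: with any 1 of the 4 arrays left out, no probe set passed in limma (lowest adjusted p between 0.0649 and 0.0836), while 8059 to 10783 had an unadjusted p under 0.05, among them 7 to 13 caspase probe sets. Of the squamous epithelial markers, 5 were measured, KRT5, KRT14, DSG3, SFN and PERP, at group means between 9.16 and 12.31, and 11 tested markers of fibroblasts, leukocytes, endothelium and melanocytes lay between 3.38 and 6.02. KRT5 and KRT14 were called higher (0.48 and 1.15), as was 1 of the 11 other markers, CD14 (0.53), and their part in the results below was not tested. Whether fewer cells held a transcript or each cell held less cannot be told apart in such bulk RNA.

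Of the 37 caspase probe sets, 25 were above the dim level and were tested, and each of the 8 genes had at least 1 tested probe set. CASP4 fell and CASP14 rose in the probe set with the highest mean of its gene, and the other 6 genes did not pass there. By gene this is 1 of 8 higher and 1 of 8 lower, where 15.4% and 9.08% of 14340 genes were called in these directions. By probe set, 1 of 25 was called higher and 6 lower, beside 14.5% and 7.95% of all probe sets tested. Of the 6 lower, 5 were of CASP4 and 1 of CASP8. The values of the 2 groups did not overlap for 15 of the 25, against 66.6% of all probe sets tested. The median difference of the 25 was -0.12, with CASP4 giving 6 of them. Over the 8 genes, each in its brightest probe set, the median was 0.13, against -0.02 for all genes. Counted by gene, the caspases were thus called about as often as other genes, and 5 of the 6 lower probe set calls came from a single gene. The 12 dim caspase probe sets (5 of CASP1, 4 of CASP8 and 1 each of CASP4, CASP10 and CASP14) had values from 1.06 to 2.56 in single arrays. A value this low cannot be told from background.

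**Figure D1:**
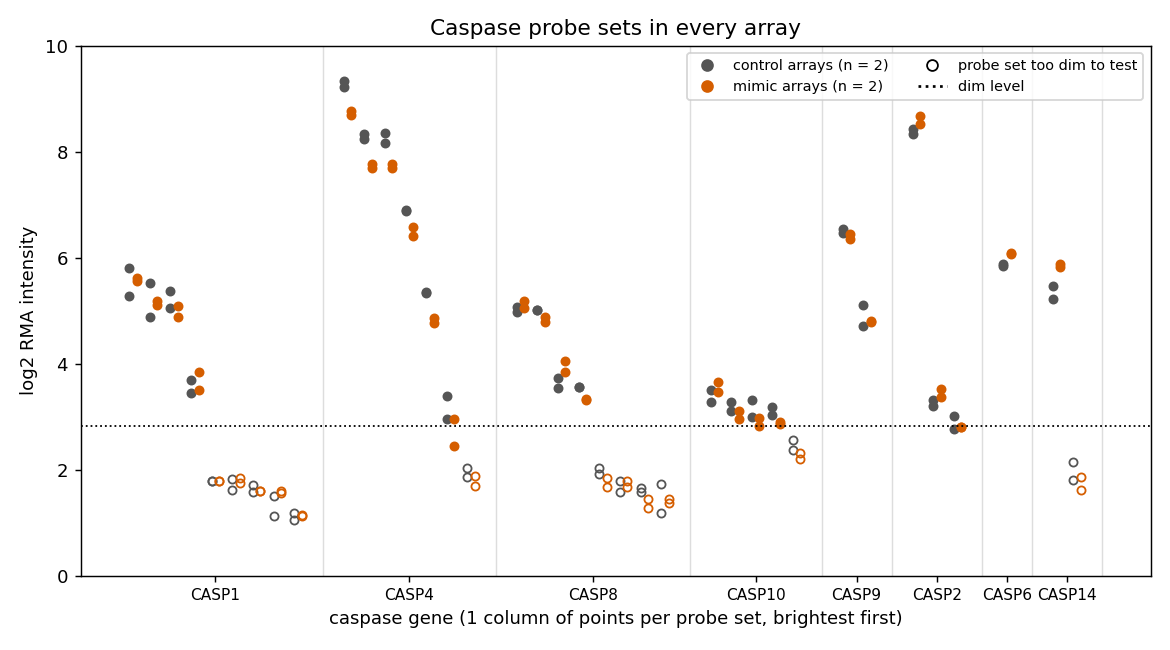
Each column of points is 1 caspase probe set, with the log2 RMA intensity of the 2 control arrays (grey) and the 2 mimic arrays (orange) on the vertical axis and the genes along the horizontal axis; open circles lie below the dim level of 2.83 (dotted). The control points stand above the mimic points in the 5 brightest CASP4 probe sets, and the order is turned in the CASP14 probe set that was tested.

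CASP4 is a human caspase that binds lipopolysaccharide in the cytosol and cuts gasdermin D in the non-canonical inflammasome. Its brightest probe set, 11746002_a_at, read 8.69 and 8.77 in the mimic arrays and 9.33 and 9.23 in the control arrays. Both mimic values were below both control values. It fell by 0.55 ± 0.075 (SE), from 9.28 ± 0.072 to 8.73 ± 0.057 (SD, n = 2), to 0.681 of the control level (adjusted p = 0.0102, limma). The next probe set, 11716760_x_at, read 7.69 and 7.77 with the mimic and 8.34 and 8.24 in the controls, and fell by 0.56 ± 0.073 (adjusted p = 0.0094). The 5 called probe sets fell by 0.39 to 0.56, and in all 5 the groups did not overlap. They share a target transcript and may share sequence, so they are not 5 independent observations. For comparison, the median difference of all probe sets called lower was -0.39.

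The remaining CASP4 probe sets were near or below the dim level. The probe set 11760491_at read 2.96 and 2.45 with the mimic and 2.96 and 3.40 in the controls, a difference of -0.48 ± 0.22 that did not pass (adjusted p = 0.174), and its groups touched. The last, 11760221_at, was dim. After the further quantile normalization the brightest CASP4 probe set was at -0.63. Leaving out 1 array at a time gave -0.50 to -0.60, with adjusted p between 0.076 and 0.119, so the call was lost, as it was for every probe set. With no filter on dim probe sets, 11716759_a_at did not pass (adjusted p = 0.0502).

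The CASP4 promoter is shown because this is the member with most probe sets called. RefSeq gives it at chr11:104968525-104968824 on the - strand (GRCh38.p14), from 250 bases before the transcription start to 50 after it. Both strands of 35116 promoters of this length were searched for GAAANNGAAA, the core of the interferon-stimulated response element (present in 3.57%), TTCNNNGAA, a STAT site (7.66%), TGANTCA, an AP-1 site (7.71%), and GGGCGG, a GC box (45.0%). The capitals mark the only match, a GC box read on the opposite strand.
CASP4: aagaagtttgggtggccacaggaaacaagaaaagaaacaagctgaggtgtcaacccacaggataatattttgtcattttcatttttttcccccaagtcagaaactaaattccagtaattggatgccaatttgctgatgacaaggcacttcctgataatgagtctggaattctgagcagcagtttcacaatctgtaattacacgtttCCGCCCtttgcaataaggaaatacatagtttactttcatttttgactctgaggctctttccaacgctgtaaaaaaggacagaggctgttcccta

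CASP1, the enzyme that matures interleukin 1 beta and interleukin 18 in the canonical inflammasome, did not pass in any of its 4 tested probe sets. Its brightest, 11732870_a_at, read 5.61 and 5.56 in the mimic arrays and 5.80 and 5.27 in the control arrays. The control values lay on both sides of the mimic values. The difference was 0.05 ± 0.18 (95% interval -0.40 to 0.51, adjusted p = 0.846), and -0.04 after quantile normalization. The other 3 gave -0.06, -0.22 and 0.11, with overlapping groups in each. Which control array is used decides the sign: the difference of 11732870_a_at was 0.32 without control replicate 1 and -0.21 without control replicate 2 (adjusted p = 0.0972 and 0.153).

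Interferon-response genes differed between the same control arrays. The mean level of 28 tested genes was 6.69 in control replicate 1 and 5.84 in control replicate 2, against 5.59 and 5.46 in the mimic arrays, and 24 of the 28 were higher in control replicate 1. Of the 28, 4 were called lower and 0 higher in limma, beside 9.08% and 15.4% of all genes. Their median difference was -0.61. All 4 tested CASP1 probe sets were also higher in control replicate 1 than in control replicate 2, by 0.53 in 11732870_a_at. The 5 called CASP4 probe sets were likewise all higher in control replicate 1, but by less: the brightest, at 9.33 and 9.23, was 0.10 apart. Its difference was -0.50 without control replicate 1. The interferon-response mean of control replicate 2 was itself above that of both mimic arrays. The part of the interferon-response level in either gene's values was not tested.

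**Figure D2:**
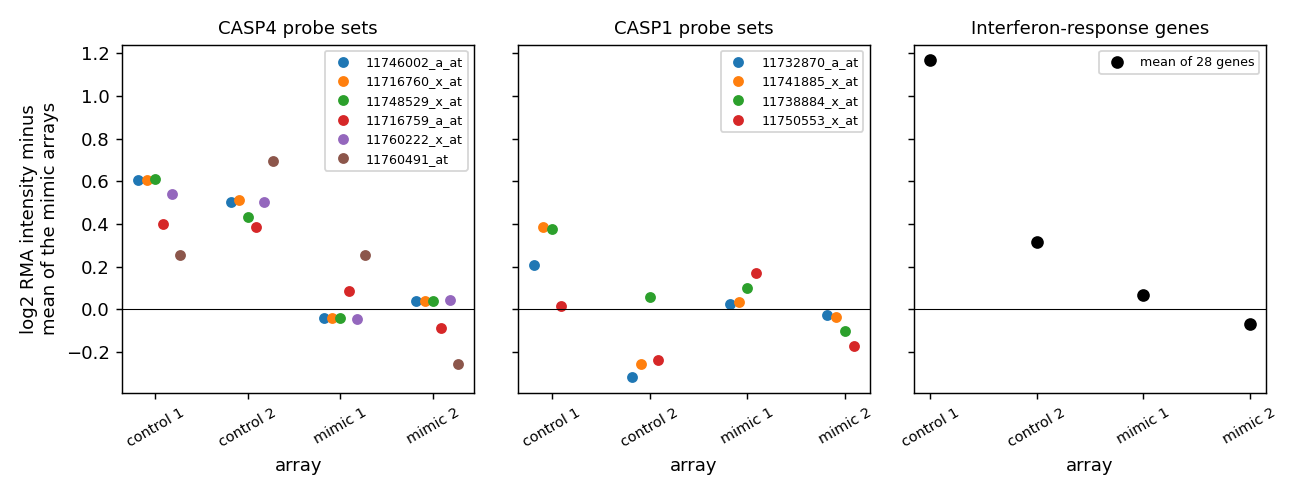
The vertical axis gives the log2 RMA intensity in each array minus the mean of the 2 mimic arrays, for the 6 tested CASP4 probe sets, the 4 tested CASP1 probe sets and the mean of 28 interferon-response genes, with the 4 arrays on the horizontal axis. Both controls lie above the mimic arrays for the 5 called CASP4 probe sets, whereas 3 of the 4 CASP1 probe sets are above 0 in control replicate 1 and below it in control replicate 2, 11738884_x_at is above 0 in both, and the interferon-response mean is highest in control replicate 1.

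CASP4 and CASP1 lie in a row of related genes on chromosome 11, in the RefSeq order CASP12, CASP4, CASP5, CASP1, CARD16, CARD17P and CARD18. Of this row only CASP4, CASP1 and CARD16 had a probe set above the dim level. CARD16, which encodes a CARD-only protein resembling the CASP1 prodomain, read 2.78 and 3.13 with the mimic and 3.36 and 3.21 in the controls (difference -0.33 ± 0.13, adjusted p = 0.139). The groups did not overlap, but the difference did not pass. CASP5 (1.13 to 1.94 over 3 probe sets), the CASP12 pseudogene (2.15 to 2.465), CARD17P (0.96 to 3.13 over 3 probe sets) and CARD18 (1.61 to 1.80) were dim.

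The genes around the inflammatory caspases went both ways. Among 8 tested inflammasome sensors and adaptors, 3 fell and 1 rose, beside 9.08% and 15.4% of all genes. The other 4 did not pass, and the median difference was -0.12 (all genes -0.02). GBP1, a guanylate-binding protein that coats bacteria and helps to activate CASP4, fell to 0.502 of the control level: it read 4.21 and 4.08 with the mimic and 5.34 and 4.94 in the controls (-0.995 ± 0.145, adjusted p = 0.0127). GBP3, of the same family, fell by 0.66 ± 0.077 (adjusted p = 0.00715). PYCARD, the adaptor ASC that recruits CASP1, rose by 0.32 ± 0.066 (adjusted p = 0.0285), and its probe sets gave 0.32 and 0.45. The PYCARD call was lost after quantile normalization, at 0.241 (adjusted p = 0.0572), and with no filter on dim probe sets (adjusted p = 0.0502). Among the substrates, IL1B rose 2.16-fold, from 7.33 and 7.42 in the controls to 8.47 and 8.52 with the mimic (1.11 ± 0.07, adjusted p = 0.00183). GSDMD, the pore-forming gasdermin, was at -0.09 ± 0.068 (95% interval -0.26 to 0.09), IL18 at -0.03 ± 0.072 and IL37 at -0.18 ± 0.07, and these 3 did not pass. IL1B, a substrate of CASP1, thus rose 2.16-fold in arrays where no CASP1 probe set was called. The transcription factor IRF9, a subunit of the interferon-activated complex ISGF3, fell by 1.44 ± 0.28 (adjusted p = 0.0246), with control values of 9.13 and 8.32 and mimic values of 7.43 and 7.14. IRF2, another interferon regulatory factor, rose by 0.29 ± 0.065 (adjusted p = 0.0362). The IRF2 call was lost after quantile normalization, at 0.179 (adjusted p = 0.105), and with no filter on dim probe sets (adjusted p = 0.0618).

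CASP8, the initiator caspase of the death-inducing signalling complex, had 4 tested probe sets with 2 positive and 2 negative differences. The brightest, 11728978_x_at, read 5.19 and 5.06 with the mimic and 5.08 and 4.98 in the controls. These ranges overlap, and the difference of 0.09 ± 0.08 did not pass (95% interval -0.11 to 0.30, adjusted p = 0.43). The probe set 11741554_x_at fell by 0.25 ± 0.063, from 3.57 in both controls to 3.32 and 3.31 (adjusted p = 0.0472). Against it, 11749790_a_at was at 0.30 ± 0.11, from 3.55 and 3.73 in the controls to 4.05 and 3.84 (adjusted p = 0.0979), and 11754153_x_at at -0.18 ± 0.071 (adjusted p = 0.122). The call of 11741554_x_at was lost in 9 of 10 alternatives, for instance at adjusted p = 0.0522 with arrays centred on their median, and the mean over the 4 probe sets was -0.01. The probe sets of CASP8 thus gave no single direction.

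CASP10, a close relative of CASP8 that also binds FADD, was called in none of its 4 tested probe sets. The brightest, 11742105_at, read 3.65 and 3.47 with the mimic and 3.29 and 3.51 in the controls (0.16 ± 0.11, 95% interval -0.11 to 0.44, adjusted p = 0.312). Its groups overlap. The other 3 were at -0.15, -0.26 and -0.23, and the mean over the 4 was -0.12. All 4 lay within 1 log2 unit of the dim level of 2.83. In the RefSeq order of chromosome 2, CASP8 and CASP10 follow CFLAR, which encodes the catalytically inactive CASP8 relative c-FLIP. CFLAR was at -0.08 and did not pass, so none of the 3 neighbours was called in its brightest probe set.

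Upstream of both genes, 3 of 10 tested genes of the death-inducing signalling complex rose and 0 fell, beside 15.4% and 9.08% of all genes. The remaining 7 did not pass, and the median difference was 0.06. All 3 encode receptors. FAS, which recruits CASP8 through FADD, rose 1.69-fold, from 4.90 and 4.85 to 5.67 and 5.60 (0.76 ± 0.067, adjusted p = 0.00371), in both of its probe sets (0.61 and 0.76). TNFRSF10A, a TRAIL receptor, rose by 0.51 ± 0.089 (adjusted p = 0.0194). TNFRSF10D, a TRAIL receptor with a truncated death domain, rose by 0.43 ± 0.075 (adjusted p = 0.0193), and its other probe set gave 0.10. In the necroptosis list, whose pathway CASP8 restrains, the deubiquitinase gene CYLD rose by 0.35 ± 0.063 (adjusted p = 0.0212), with 3 probe sets from 0.35 to 0.95. The other 2 genes went the other way, at -0.24 each, and did not pass. The median difference of the list was -0.24.

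CASP9, the initiator on the apoptosome, gave small differences in both probe sets. The brightest, 11748782_a_at, read 6.35 and 6.45 with the mimic and 6.47 and 6.54 in the controls (-0.11 ± 0.073, 95% interval -0.29 to 0.08, adjusted p = 0.317). The mimic values were just below the controls. The other, 11741401_a_at, read 4.80 and 4.78 against 5.11 and 4.72 (-0.12 ± 0.14, adjusted p = 0.555), with overlapping groups. Among 7 genes of the apoptosome and of mitochondrial release, 2 fell and 0 rose, beside 9.08% and 15.4% of all genes. The other 5 did not pass, and the median difference was -0.19. Those that fell were the pore-forming BCL2 family genes BAK1, by 0.35 ± 0.072 (adjusted p = 0.0289, with 5 probe sets between -0.35 and 0.06), and BAX, by 0.31 ± 0.068 (adjusted p = 0.0341; the other probe set gave -0.26). With no filter on dim probe sets BAX did not pass (adjusted p = 0.0582).

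CASP2, the caspase activated by the PIDDosome after DNA damage or extra centrosomes, read 8.52 and 8.67 with the mimic and 8.34 and 8.43 in the controls in 11720035_s_at. The mimic values were above both controls, but the difference of 0.21 ± 0.082 did not pass (95% interval 0.0046 to 0.42, adjusted p = 0.12). It passed when the variance model followed an intensity trend (adjusted p = 0.0433). The probe set 11720034_x_at was at 0.19 ± 0.083, and 11720036_a_at, whose values lay at the dim level, was at -0.07 ± 0.1. None of the 3 genes listed around the PIDDosome, PIDD1, CRADD and MDM2, passed, beside 15.4% of all genes called higher and 9.08% lower. CRADD, the adaptor RAIDD that carries CASP2 to the platform, had the largest moderated t (0.16 ± 0.067, adjusted p = 0.138, and -0.03 in another probe set).

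CASP6, the only effector caspase among the 8, was measured by a single probe set, 11736215_x_at. It read 6.08 and 6.09 with the mimic and 5.85 and 5.88 in the controls, so that both mimic values were above both controls with little spread. The difference was 0.22 ± 0.063 (95% interval 0.06 to 0.38) and did not pass over all probe sets (adjusted p = 0.0657). It passed when each gene was represented by 1 probe set (adjusted p = 0.044), and was 0.11 after quantile normalization (adjusted p = 0.242).

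A further list held genes of effector caspase substrates and of proteins tied to them, such as DFFB. Of its 13 tested genes, 4 rose and 0 fell, beside 15.4% and 9.08% of all genes. The other 9 did not pass, and the median difference was 0.15. The leading genes were the kinase gene ROCK1 (0.82 ± 0.08, adjusted p = 0.00479), whose product drives membrane blebbing once cleaved, and the lamin genes LMNB1 (0.80 ± 0.12, adjusted p = 0.0137) and LMNB2 (0.78 ± 0.1, adjusted p = 0.00994). Other probe sets of ROCK1 and LMNB1 gave as little as 0.07. Without s_at and x_at probe sets LMNB2 was at 0.50 and did not pass (adjusted p = 0.122). Of 6 tested inhibitor of apoptosis proteins and regulators, 2 rose and 0 fell, beside the same shares of all genes. The other 4 did not pass (median 0.17). BIRC5, the gene of survivin, which also acts in mitosis, rose by 0.80 ± 0.1 (adjusted p = 0.00915), while 11 of its probe sets spread between -0.13 and 1.36. BIRC2, the gene of cIAP1, rose by 0.38 ± 0.072 (adjusted p = 0.0235), and its 5 probe sets lay between 0.36 and 0.56.

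**Figure D3:**
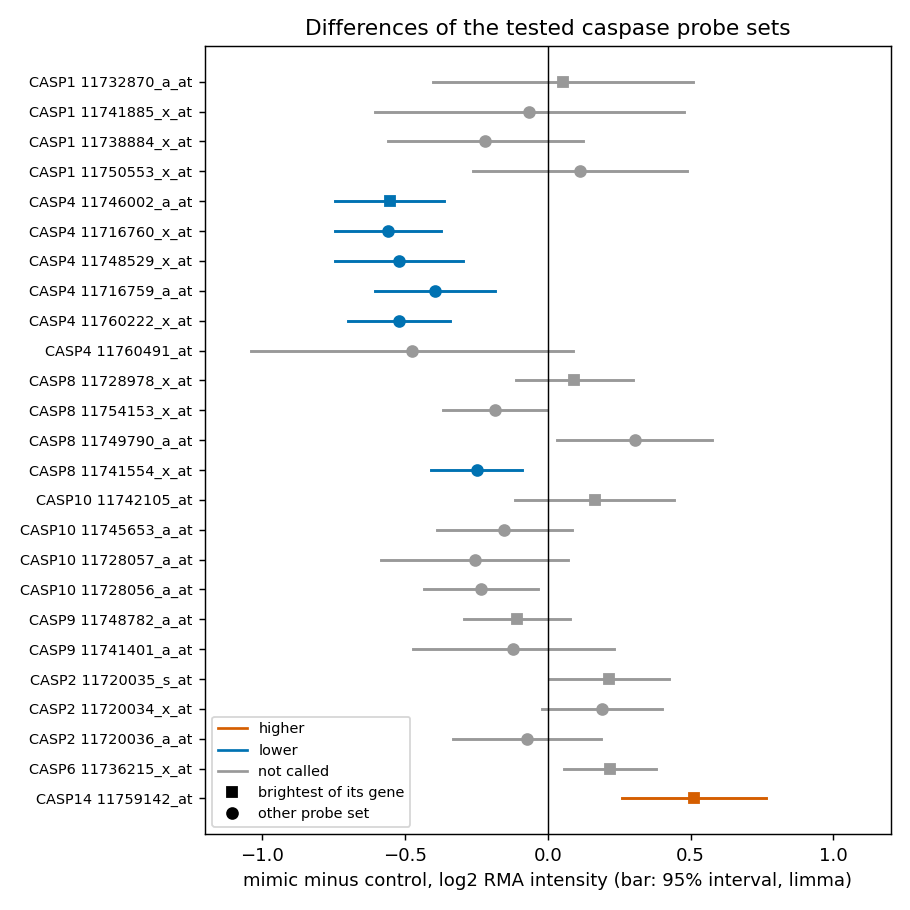
Each row is 1 of the 25 tested caspase probe sets, with the mimic minus control difference in log2 RMA intensity on the horizontal axis, its 95% interval from limma as a bar, and a square for the brightest probe set of a gene. The 5 blue CASP4 rows lie between -0.39 and -0.56 with intervals below 0, 1 blue CASP8 row stands beside others of the opposite sign, and the orange CASP14 row is at 0.51.

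CASP14, the caspase of terminally differentiating keratinocytes, is not held to act in apoptosis. Its brighter probe set, 11759142_at, read 5.89 and 5.83 with the mimic and 5.47 and 5.23 in the controls. Both mimic values were above both controls. It rose 1.43-fold, by 0.51 ± 0.098 (SE), from 5.35 ± 0.17 to 5.86 ± 0.037 (SD, n = 2; adjusted p = 0.0245, limma). The median of all probe sets called higher was 0.53. The second probe set, 11715288_s_at, was dim, with values of 1.86 and 1.61 against 1.81 and 2.15, so the increase rests on 1 probe set. It was 0.63 without control replicate 1 and 0.39 without control replicate 2 (adjusted p = 0.073 and 0.0896).

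The genes that surround CASP14 in the epidermal barrier were in part not measurable: FLG, the filaggrin precursor, FLG2, HRNR and LORICRIN were dim, with values from 1.03 to 2.53. Of 6 tested genes of that list, 1 rose and 0 fell, beside 15.4% and 9.08% of all genes. The other 5 did not pass, and the median difference was 0.25. The gene that rose was KRT10, a keratin of suprabasal layers, by 0.37 ± 0.066 (adjusted p = 0.0207), from 8.94 and 9.01 to 9.36 and 9.34. CASP14 and KRT10 thus rose in arrays in which filaggrin stayed below the dim level.

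The CASP14 promoter is shown as that of the member that rose. It lies at chr19:15049230-15049529 on the + strand (GRCh38.p14), cut at the same distances from the start, and the capitals mark its match to the AP-1 letters TGANTCA. It held none of the other 3 motifs.
CASP14: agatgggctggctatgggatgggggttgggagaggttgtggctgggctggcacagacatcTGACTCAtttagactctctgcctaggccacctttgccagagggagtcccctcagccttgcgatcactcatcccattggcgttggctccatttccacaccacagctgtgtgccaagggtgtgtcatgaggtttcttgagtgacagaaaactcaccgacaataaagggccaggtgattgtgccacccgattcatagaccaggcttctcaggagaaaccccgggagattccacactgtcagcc

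RefSeq promoters were matched for 6 of the 8 genes, 10 promoters in all. The interferon-stimulated core and the STAT letters each occurred in 1 of the 10, the same CASP8 promoter, the AP-1 letters in 3 (2 of CASP8 and that of CASP14), and the GC box in 6. A match shows only that these letters are present.

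**Figure D4:**
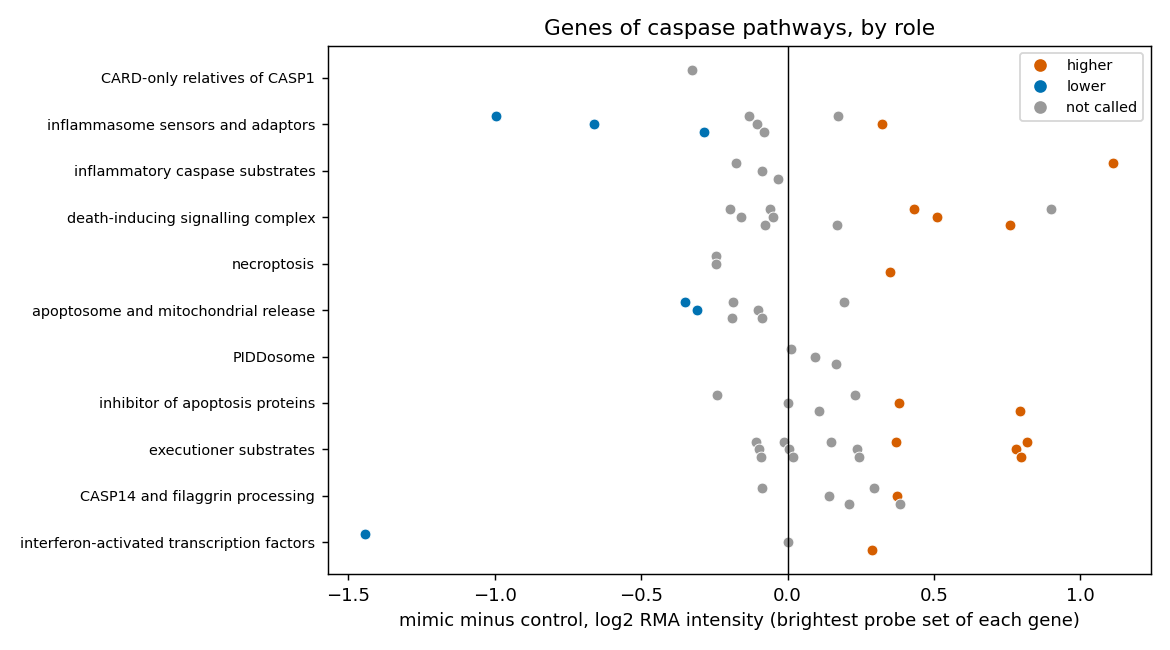
Each point is 1 tested gene of the lists around the caspases, placed by its mimic minus control difference in log2 RMA intensity (brightest probe set) and coloured by its call. Of 64 genes, 14 were called higher, 6 lower and 44 did not pass; the lower calls lie in the inflammasome, mitochondrial and interferon factor rows, and IRF9 is farthest to the left at -1.44.

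Over all lists, each gene counted once, 14 of 64 tested genes rose and 6 fell, with a median difference of 0.00, beside 15.4% and 9.08% of all genes. The genes whose 4 values most resembled those of the called caspases, after each gene's own mean was subtracted, were sought among 14340 genes by Euclidean distance over the 4 arrays. For CASP4 they were FAM234B (distance 0.0266), SIGLEC16 (0.0285) and LOC101929774 (0.0338), at differences of -0.56, -0.53 and -0.56. For CASP14 they were ECPAS (0.0155), SUSD2 (0.0175) and ZSCAN29 (0.0241), at 0.50, 0.52 and 0.53. With 4 arrays many genes share such a pattern, and these are given as a description.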

How the data were processed

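The authors deposited 1 RMA intensity per probe set and array, on a linear scale, for 2 mimic and 2 control arrays prepared from 2 µg of RNA; RMA is named in the submitters' processing notes, with no software or setting stated there. Intensities ran from 1.62 to 11401, with array medians of 17.2 to 17.5, and were converted to log2. Of 49293 probe sets, 44988 had 1 gene symbol, 1832 several and 2473 none; 44961 were matched by gene identifier to RefSeq (GRCh38.p14) for the current symbol. Probe sets in the lowest 30% by mean over the 4 arrays were left out as dim. The remaining 31711 were fitted together in limma 3.58.1 (R 4.3.3; lmFit and eBayes, 5.1 total degrees of freedom), mimic against control, without a block, with Benjamini-Hochberg adjustment over all of them. The fit was made per probe set because the members are probe sets; a fit with 1 probe set per gene was an alternative. A gene was read from its probe set with the highest mean. With 2 arrays a group, the smallest two-sided p an exact permutation allows is 0.333.

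Genes named outside the 8 were taken by a rule: all measured genes of the other caspases, the CARD-only relatives and the inflammatory substrates, and up to 3 called genes with the largest difference per other list, or the 1 with the largest moderated t. CFLAR was added as a chromosomal neighbour, and FLG, FLG2, HRNR, LORICRIN and the markers KRT5, KRT14, DSG3, SFN, PERP and CD14 were named after their values were seen. The members and lists were chosen with earlier results of these data known. Alternatives covered the dim filter, normalization, the features tested, the variance model, a replicate block and each left-out array.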

Additional observations from a re-analysis of the deposited data

How the results depend on the processing

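The direction of CASP4 and CASP14 held in all 14 alternatives (CASP4 from -0.63 to -0.50, CASP14 from 0.39 to 0.63). Both calls were kept in the 10 that used all 4 arrays. Most alternatives could not have changed the direction. Those that changed only the probe sets tested, the variance model or the block left the differences at -0.55 and 0.51. As the groups did not overlap, leaving out 1 array could not change the sign either. Without any 1 array, every count of caspase probe sets, caspase genes and pathway genes, higher or lower, was 0 (range 0 to 0). Caspase genes and probe sets called higher were 2 in place of 1 with the lowest 50% left out, and 2 with an intensity trend; genes called higher were 2 with 1 probe set per gene. Caspase probe sets called lower were 2 in place of 6 without s_at and x_at probe sets, which removes 4 of the 6, and 3 with the replicate number as a block. Under the replicate block, 7 pathway genes were higher and 3 lower in place of 14 and 6. Of all probe sets, 2917 were called higher and 878 lower in place of 4591 and 2522. With the block the fit has fewer residual degrees of freedom, which raises p at the same t. The part of this in the lost calls was not tested. The block took the adjusted p of BAK1, BAX, BIRC2, CYLD, IRF2, KRT10, PYCARD and TNFRSF10D to between 0.0544 and 0.0779, and that of CASP4 11716759_a_at and 11748529_x_at and of CASP8 11741554_x_at to 0.0586, 0.0526 and 0.0901. Over all probe sets tested, the deviations of samples with the same number correlated at -0.0089. The mean interferon-response level was higher in replicate 1 of both groups (mimic 5.59 and 5.46, control 6.69 and 5.84). In all 4 tested CASP1 probe sets, replicate 1 was likewise above replicate 2 in both groups. Whether samples with the same number shared more than the number was not tested.

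Of 590 differences recomputed, 13 changed sign, all of results that did not pass in the main analysis. CASP1 was at -0.0400 after quantile normalization and -0.0292 as the mean of its probe sets. CASP8 was at -0.0087 and CASP10 at -0.12 as means of probe sets. Without s_at and x_at probe sets, CASP2 was at -0.0731 and CRADD at -0.0327. Leaving out 1 array at a time gave ranges across 0 for CASP1 (-0.21 to 0.319) and its probe sets 11741885_x_at (-0.386 to 0.257) and 11750553_x_at (-0.0576 to 0.282), for CASP2 11720036_a_at (-0.200 to 0.0541), for CASP9 11741401_a_at (-0.316 to 0.0761) and for IL18 (-0.0818 to 0.0192). Signal near the dim level limits CASP10 and the lower CASP8 probe sets.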
